A study of Dicentrarchus labrax with 16 samples.

Results

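Runs of neighbouring CpG sites that were nearly fully methylated in both testis and muscle of European sea bass (Dicentrarchus labrax) are described here. DNA methylation was measured by reduced representation bisulfite sequencing (RRBS) in testis and in muscle of the same 3 wild adult fish. This gave 3 testis and 3 muscle libraries. The labels number the libraries of each tissue 1, 2 or 3, and equal numbers were taken to mean the same fish. The fish were caught outside the reproductive season and received no treatment, and each library was made from bulk tissue, so that a level under 100% in a library can come from some of the cells or from 1 of the alleles. Gene expression was also measured in the study, in 10 RNA-seq libraries, but its tables hold no gene positions and were not used here. Positions are on the dicLab v1.0c build, and gene positions and sequence of this build were not used here, so that genes, exons, introns and repeats at the runs are not named.

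In vertebrates, methyl groups are added to cytosines mostly where a guanine follows (a CpG), and after each cell division the maintenance methyltransferase DNMT1 copies the pattern to the new strand. Most of the genome, including gene bodies and repeats, is methylated, while CpG-rich promoters are usually kept free of methylation. A long methylated run is therefore the usual state of CpGs outside promoters. RRBS cuts the DNA with MspI at CCGG and reads an unmethylated cytosine as T after bisulfite treatment, so that it samples CpG-rich stretches. A cytosine that is T in the genome of a fish is read as unmethylated too.

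The runs were chosen by their methylation. CpGs with at least 10 reads in all 6 libraries, and in none of them above its 99.9th percentile of coverage, were kept, the strands were summed, and CpGs up to 100 bp apart on the 24 linkage groups were joined. A run of 5 to 14 CpGs was a member when its mean level over CpGs was over 90% in each of the 6 libraries. This held for 2490 of 20603 runs, or 12.1%, with 17883 CpGs. The level of the members in these libraries, and how it differs between the tissues within the limit, was selected on and is given as a description without a test. Mean coverage per listed cytosine was 56.8 to 79.6 reads in testis and 47.9 to 99.5 reads in muscle.

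Membership was limited by muscle. Of the 20603 runs, 10264 passed 90% in none of the libraries, 2113 passed in 5 and 2490 passed in all 6. All 3 testis libraries were over 90% in 6634 runs, and all 3 muscle libraries in 2827 runs. Of the 2113 runs that missed in a single library, 1948 (92.2%) missed in muscle. Testis 1, 2 and 3 alone kept out 57, 42 and 66 runs, and muscle 1, 2 and 3 alone kept out 712, 520 and 716 runs. Without 1 muscle library at a time the limit would have admitted 3010 to 3206 runs, and without 1 testis library 2532 to 2556 runs.

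Within the members, the middle of the distribution was alike in both tissues and its width was not. The median run had 97.1%, 97.1% and 96.9% in testis 1, 2 and 3, and 97.1%, 95.9% and 97.1% in muscle 1, 2 and 3. The 5th to 95th percentile ran from 92.6% or 92.7% to between 99.0% and 99.2% in the testis libraries, and from 91.0% to between 99.8% and 100% in the muscle libraries. The 5th percentile thus lay nearer to the limit, and the 95th nearer to complete methylation, in each muscle library than in any testis library. The upper quartile did not follow this in muscle 2. It was 97.9% there, below that of each testis library, and 99.6% in both muscle 1 and muscle 3. Runs between 90% and 92% made up 3.03% ± 0.061 (SD, n = 3 libraries) of the members in testis and 11.2% ± 0.67 in muscle. Every CpG of the run was at 100% in 13, 11 and 13 members in testis 1, 2 and 3, and in 489, 95 and 486 members in muscle 1, 2 and 3. In no member was every CpG at 100% in all 6 libraries. Over 95% in each library were 701 members (28.2%), and over 98% were 39 (1.57%).

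**Figure D1:**
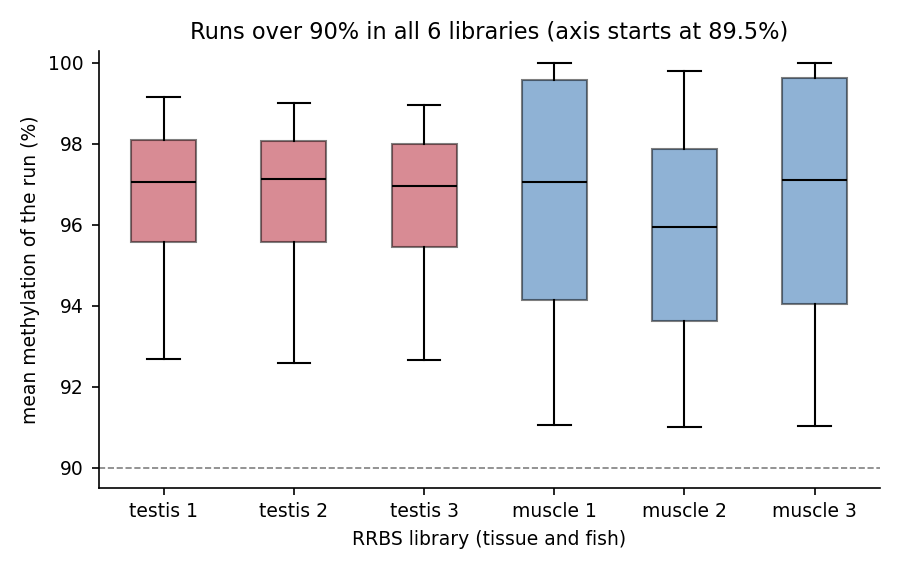
Mean methylation of the 2490 runs (vertical axis, %, cut just under the 90% limit drawn as a dashed line) in each RRBS library (horizontal axis), with testis in red and muscle in blue. Boxes hold the middle 50% of the runs, lines in them are medians and whiskers reach the 5th and 95th percentiles. Testis medians lie at 96.9% to 97.1% and muscle medians at 95.9% to 97.1%, with wider boxes in muscle.

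The same contrast stood within the runs. The median SD among the CpGs of a run was 2.69, 2.48 and 2.45 percentage points in testis 1, 2 and 3, and 5.28, 4.80 and 5.30 points in muscle 1, 2 and 3. The lowest CpG of the median run was at 92.5% to 92.9% in testis and at 86.4% to 87.3% in muscle. The CpGs of the median run were thus more uneven in muscle, in all 3 fish, and runs were not matched on their mean or depth. CpGs under 80% made up 0.906%, 1.07% and 0.794% of the member CpGs in testis 1, 2 and 3, against 5.73%, 3.93% and 5.63% in muscle 1, 2 and 3. CpGs at exactly 100% made up 27.6%, 19.5% and 19.7% in testis 1, 2 and 3, against 69.7%, 39.1% and 69.8% in muscle 1, 2 and 3. Muscle libraries 1 and 3 stood apart from muscle 2 here, and they were also the shallowest.

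Coverage also differed between the libraries. Median coverage of a member CpG was 88, 144 and 117 reads in testis 1, 2 and 3, and 54, 162 and 59 reads in muscle 1, 2 and 3. To compare at a fixed depth, the expected share of CpGs was computed for draws of 10 reads. All 10 reads were methylated at 74.9%, 75.1% and 73.7% of the CpGs in testis and at 83.0%, 74.0% and 82.8% in muscle. Under 80% of the 10 reads were methylated at 1.504%, 1.62% and 1.45% of the CpGs in testis and at 4.84%, 4.25% and 4.74% in muscle. At equal depth, muscle 2 thus fell among the testis libraries in its fully methylated CpGs, while all 3 muscle libraries kept more low CpGs than any testis library. RRBS reads carry no molecular identifiers, so reads of a CpG need not be separate molecules, and the part of this in the muscle values was not tested.

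**Figure D2:**
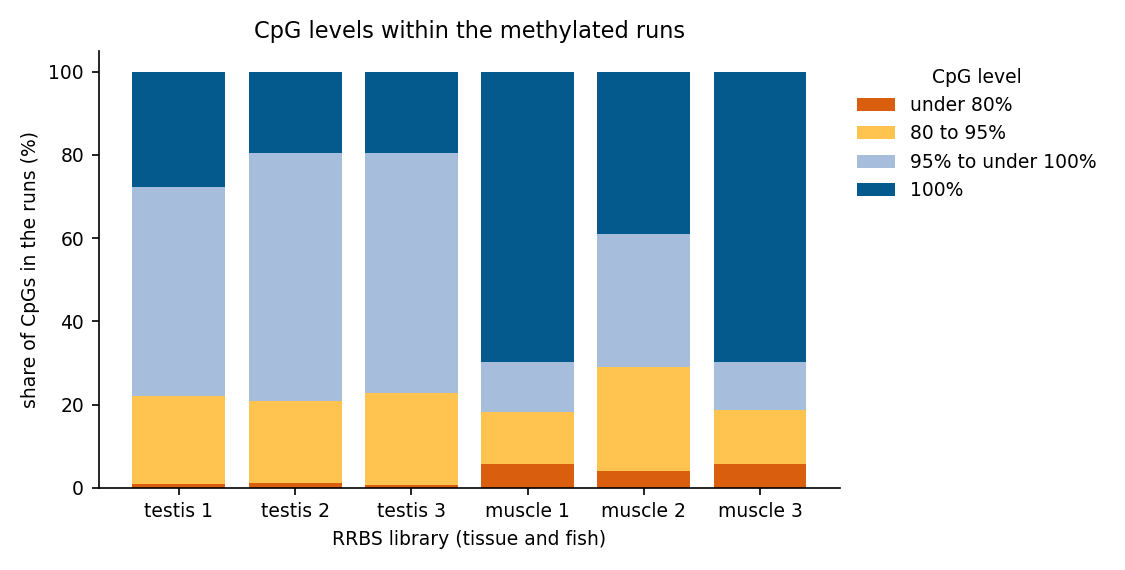
Share of the 17883 CpGs of the runs (vertical axis, %) at 4 levels of methylation in each library (horizontal axis). CpGs at 100% fill 19.5% to 27.6% of the testis bars and 39.1% to 69.8% of the muscle bars, and CpGs under 80% fill 0.794% to 1.07% of the testis bars and 3.93% to 5.73% of the muscle bars.

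The ends of a run were close to its inner CpGs in mean level, which the limit bounds. The 4980 first and last CpGs averaged 96.5% ± 0.051 in testis and 96.0% ± 0.62 in muscle (SD, n = 3 libraries), and the 12903 inner CpGs averaged 96.7% ± 0.072 in testis and 96.2% ± 0.42 in muscle. CpGs under 80% were nevertheless more frequent at the ends in all 6 libraries, with 1.12%, 1.29% and 0.924% at the ends against 0.822%, 0.992% and 0.744% inside in testis 1, 2 and 3, and 6.49%, 4.96% and 6.35% at the ends against 5.44%, 3.53% and 5.36% inside in muscle 1, 2 and 3. The other runs of 5 to 14 CpGs went the other way in all 6 libraries. CpGs under 80% there made up 53.3% to 54.6% at the ends against 57.1% to 57.8% inside in testis. In muscle they made up 60.7% to 63.6% at the ends against 64.0% to 66.5% inside. In the 2101 CpGs read on both strands, the strand means of a library differed by at most a fraction of a point. Single CpGs with strands over 50 points apart numbered 1, 6 and 2 in testis 1, 2 and 3, and 28, 16 and 40 in muscle 1, 2 and 3. Disagreement between the strands, like that between the CpGs of a run, was thus more frequent in each muscle library than in any testis library. Strands over 50 points apart were also more frequent in muscle in the other runs of 5 to 14 CpGs. They made up 0.978% to 1.13% of the CpGs there in testis and 1.81% to 5.29% in muscle.

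The difference between the tissues over all members was small and unequal among the fish. Testis minus muscle, as a mean over the members, was 0.107 points in fish 1, 0.964 in fish 2 and -0.0299 in fish 3, which gives 0.347 ± 0.54 points (SD, n = 3 fish). It was -0.104 points when the runs were chosen without fish 2, and -0.495 points with a limit of 95%. The other 18113 runs of the same size averaged 4.65, 3.803 and 3.03 points in fish 1, 2 and 3. The limit bounds the difference in the members and not in the others, so that these values were not compared. Testis was higher in all 3 fish in 427 members (17.1%), muscle was higher in all 3 fish in 339 (13.6%), and the sign was mixed in 1724. Of the other runs, testis was higher in all 3 fish in 35.7% and muscle in 8.38%, likewise not compared. The lowest of the 6 libraries was a muscle library in 1787 members (71.8%). The spread over the 3 fish was 0.942 points in testis and 2.21 points in muscle in the median member.

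The members with the largest differences are given next. On LG2, the run at LG2:21202184-21202424 had 98.2%, 97.3% and 99.0% in testis and 92.8%, 92.9% and 90.4% in muscle. The groups did not overlap, at 6.11 points higher in testis. Only some of its 7 CpGs carried this: the CpG at 21202382 had 99.2%, 95.8% and 100% in testis 1, 2 and 3, against 82.5%, 83.2% and 62.6% in muscle 1, 2 and 3. The last CpG, at 21202423, had 98.5%, 96.1% and 100% in testis, against 100% in each muscle library. The next largest were LG6:21192402-21192569, with 97.4% ± 1.2 in testis and 91.4% ± 1.3 in muscle, and LGx:5882368-5882542, with 98.1% ± 1.2 in testis and 92.1% ± 3.1 in muscle (SD, n = 3 each).

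In the other direction, the run at LG2:16892150-16892293 had 92.04%, 93.1% and 91.4% in testis, against 100%, 97.1% and 100% in muscle. It was the member with the largest excess in muscle, at -6.87 points. The run at LG16:12553918-12553978 had 91.1%, 95.3% and 92.8% in testis, against 100%, 99.8% and 99.9% in muscle. In this run a single CpG made most of the gap. The last of 7 had 61.8%, 80.9% and 67.3% in testis 1, 2 and 3 and 100% in each muscle library. The other 6 CpGs of the run were at 88.7% or more in every library. The run at LG22-25:9004952-9005113 followed, with 91.9% ± 1.2 in testis and 98.04% ± 1.7 in muscle (SD, n = 3 each).

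Calls per CpG, made with the logistic regression used in the study over all 475516 CpGs, are a count from the same contrast that chose the runs. Among all CpGs, 11.7% were called higher in testis and 4.26% higher in muscle, at an adjusted p under 0.01 and a difference over 15 points. Among the 17883 member CpGs, 316 (1.77%) were called higher in testis and 34 (0.190%) higher in muscle. The rule keeps such CpGs out, so nothing is read from the lower share. The 350 called CpGs lay in 322 members (12.9%), and the share of other runs with a called CpG is not given here. With 1 fish left out of the choice and the regression, more runs qualified and 866 to 1044 of their CpGs were called. These made up 3.12% to 4.48% of the CpGs of the chosen runs, beside 16.98% to 18.8% of all CpGs. With all 3 fish the shares were 1.96% and 15.99%. This regression takes the reads of a tissue as independent, and with quasi-binomial regression or limma, which use the spread among the fish, 0 member CpGs were called after adjustment. Over all 475516 CpGs, quasi-binomial regression called 146 (0.0307%) and limma 0. At an unadjusted p under 0.05 and over 15 points, quasi-binomial regression had 101 member CpGs (0.565%), beside 5.96% of all CpGs, and limma had 84 (0.470%), beside 6.08%.

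The number of lowly methylated CpGs in the members was bounded by the limit on the mean of a run. In the 752 members of 5 CpGs that limit allows no CpG under 50%, and in longer members it keeps them few. The counts are thus given as a description without a test. Under 50% in at least 1 library were 180 CpGs, in 167 members. Of these, 40 were low in a testis library and 157 in a muscle library, and 16 were low in both tissues of 1 fish. Among CpGs with at least 20 reads, the lowest level in any library was 0%, and the 2 runs named by the rule for it are given here. In LG10:22574166-22574365, the CpG at 22574297 had 48.2%, 41.4% and 0% in testis 1, 2 and 3, and 10%, 22.7% and 0% in muscle 1, 2 and 3, so that it was low in both tissues of every fish. It was covered by 83, 87 and 85 reads in testis and by 10, 66 and 62 reads in muscle. The CpG 2 bp further on had 93.3% to 96.6% in testis and 100% in each muscle library, and the run averaged 91.2% ± 1.8 in testis and 92.1% ± 0.42 in muscle (SD, n = 3 each). Whether a sequence change of the fish gave the low value was not tested.

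The other of these CpGs lay in LG4:27460139-27460224. Its CpG at 27460174 had 0% of 37 reads in muscle 3, and 100% of 41 and 100% of 30 reads in muscle 1 and 2. In testis it had 87.0%, 100% and 66.7% in fish 1, 2 and 3, from 23, 18 and 15 reads. The CpGs 3 bp before and 3 bp after it were at 99.1% or more in every library. One library alone was thus at 0 within a methylated run, and the testis of that fish was the lowest of the testis libraries, on the fewest reads.

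The members with the highest level in their lowest library were these. LG18-21:10885419-10885451, with 6 CpGs in 33 bp, had 99.5%, 99.1% and 99.5% in testis and 100% in each muscle library. LG10:10063847-10063916, with 7 CpGs in 70 bp, had 99.1%, 99.3% and 99.2% in testis and 99.0%, 99.2% and 99.0% in muscle. Both were covered by a mean of at least 50.8 reads per CpG in every library. At the limit, LG22-25:8533777-8533943 had 97.0%, 94.7% and 96.7% in testis and 96.1%, 95.9% and 90.0007% in muscle, and LG4:830444-830618 had 94.1%, 98.5% and 97.8% in testis and 97.99%, 90.01% and 99.4% in muscle. Just outside it, LG10:22148878-22148999 had 97.1%, 96.9% and 97.8% in testis and 100%, 91.9% and 90% in muscle, and LG11:22848181-22848215 had 97.7%, 95.8% and 97.3% in testis and 100%, 96.7% and 90% in muscle. In each of these 4 runs 1 muscle library alone set the side of the limit.

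Some members combined full methylation in part of the muscle libraries with a lower level in another. LG18-21:13927500-13927585 had 97.6%, 98.2% and 98.5% in testis and 100%, 90.2% and 100% in muscle, and LG5:17366308-17366353 had 94.9%, 96.0% and 95.7% in testis and 100%, 90.2% and 100% in muscle. These had the largest SD in muscle, 5.68 and 5.63 points, against 0.493 and 0.547 points in testis. In both, muscle 2 was the low library and by far the deepest of the muscle libraries. In the first run it had a mean of 300.6 reads per CpG, against 48.6 and 31.0 in muscle 1 and 3.

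The members with the deepest coverage in their lowest library follow, though reads of a CpG need not be separate molecules. LG14:14867847-14867909, with means of 615 to 843 reads per CpG in the 6 libraries, had 94.4%, 93.9% and 93.7% in testis and 90.5%, 93.0% and 90.1% in muscle. LG14:28359139-28359183, with means of 459.8 to 821 reads, had 94.2%, 93.9% and 95.03% in testis and 93.8%, 92.2% and 90.6% in muscle. No library reached the median of its members in either run. The 2 tissues did not overlap, though in the second run only narrowly, at 93.9% in testis 2 against 93.8% in muscle 1. The share of all members without overlap is not given here.

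The tissue difference was also read in fish that took no part in the choice of the runs. Runs were chosen again on the 4 libraries of 2 fish and read in the fish left out. Each choice holds all the members, and each fish helped to choose the runs read in the others, so the 3 fish are not independent here. The 3367, 3158 and 3342 runs chosen without fish 1, 2 and 3 averaged 95.8%, 95.8% and 95.8% in the testis of that fish and 93.2%, 93.2% and 93.3% in its muscle. The difference was 2.58 points, with testis higher in 3 of 3 fish and no overlap. It is given as a description without a test. The members, held over 90% in every fish, differed by 0.107, 0.964 and -0.0299 points in fish 1, 2 and 3. Most of the 2.58 points thus lay in runs that missed the limit in the fish left out, so this difference does not bear on the members. All runs of this size averaged 58.3%, 58.3% and 58.95% in testis 1, 2 and 3 and 54.2%, 54.9% and 56.3% in muscle 1, 2 and 3, so that a gap between the tissues was not particular to the chosen runs. Over 90% were 95.1%, 95.3% and 95.9% of the chosen runs in testis and 75.6%, 80.2% and 76.5% in muscle. Among all runs of this size, 38.9% to 39.7% were over 90% in a testis library and 26.2% to 28.4% in a muscle library.

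The share over 90% was 18.01 points higher in testis, in 3 of 3 fish. The runs over 90% here are the members and runs that missed in a single library. This share thus restates the rule and is given as a description without a test. In the fish left out, 0.684% ± 0.21 of the runs were under 80% in testis and 4.74% ± 0.78 in muscle (SD, n = 3 fish). The lowest run in a testis was at 32.4% and the lowest in a muscle at 8.11%. Across the tissues, the 2827 runs over 90% in all 3 muscle libraries were over 90% in 92.3%, 93.2% and 92.6% of cases in testis 1, 2 and 3. The 6634 runs over 90% in all 3 testis libraries were over 90% in 61.6%, 65.5% and 63.8% of cases in muscle 1, 2 and 3. In 7 of these 6634 runs all 3 muscle libraries were under 50%, and in 4 of the 2827 runs all 3 testis libraries were.

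**Figure D3:**
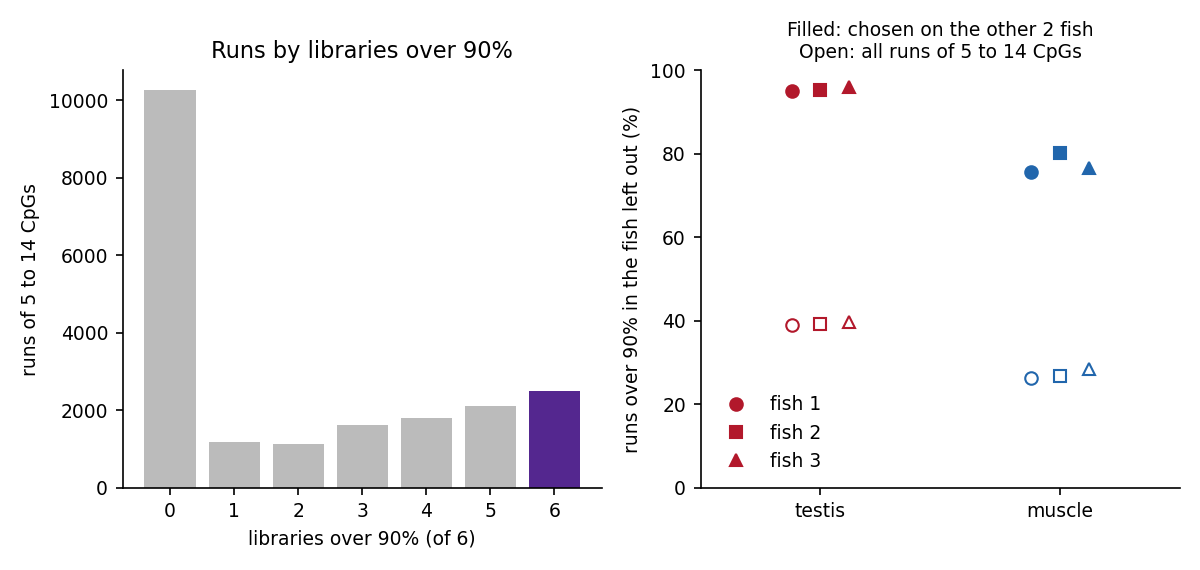
Left, number of runs of 5 to 14 CpGs (vertical axis) by the number of libraries in which the run was over 90% (horizontal axis), with the 2490 members in purple. Right, share of runs over 90% in the fish left out (vertical axis, %) by tissue, for runs chosen on the other fish (filled, 95.1% to 95.9% in testis and 75.6% to 80.2% in muscle) and for all runs of this size (open), with a symbol for each fish.

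Cytosines within the members that the rule did not read were also methylated. In the spans lay 816 cytosines outside the CpGs kept in all 6 libraries. They averaged 94.6%, 94.5% and 95.1% in testis, from 420 to 723 cytosines a library, and 95.2%, 92.4% and 93.2% in muscle, from 122 to 726. Testis minus muscle was 1.13 points, higher in 2 of 3 fish, with a two-sided exact permutation p of 0.4. This value moved with the settings, between -1.08 points (limit of 95%) and 3.39 points (joined up to 50 bp), and p was 0.1, the smallest possible, in 5 of them. The 2177 cytosines on the other strand of a kept CpG averaged 95.1% ± 1.4 in testis and 92.9% ± 1.4 in muscle (SD, n = 3 libraries), with an exact permutation p of 0.2. By fish, the other-strand cytosines had 95.7%, 93.6% and 96.1% in testis 1, 2 and 3, against 94.1%, 91.4% and 93.1% in muscle 1, 2 and 3. The mean was thus higher in testis within each of the 3 fish although the tissues overlapped. With the fish as pairs the exact sign-flip permutation p was 0.25, the smallest 3 fish can give. These means rest on 1297, 1841 and 1303 cytosines in testis 1, 2 and 3, and on 589, 1707 and 733 in muscle 1, 2 and 3. In both sets the cytosines thus differed between the libraries, and the tissues were not compared on shared cytosines.

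Methylation reached beyond the runs and fell off over some kilobases. CpGs 100 to 250 bp from a member averaged 92.3% ± 0.32 in testis and 89.2% ± 0.69 in muscle (SD, n = 3 libraries, 1879 CpGs). At 500 to 1000 bp they averaged 79.5% ± 0.18 in testis and 75.4% ± 0.92 in muscle (2497 CpGs), and at 2000 to 5000 bp 57.2% ± 0.49 in testis and 54.6% ± 1.1 in muscle (12059 CpGs). From there on the profile was flat, with 55.9% ± 0.40 in testis and 52.4% ± 1.1 in muscle over 50000 bp away. CpGs without methylation became frequent with distance. Under 10% were 0.266% of the CpGs at 100 to 250 bp in testis and 0.266% in muscle, and at 2000 to 5000 bp 32.6% in testis and 31.9% in muscle.

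Up to 1000 bp from a member, the 5931 CpGs averaged 86.0%, 85.8% and 86.2% in testis and 81.4%, 82.2% and 82.9% in muscle. The tissues did not overlap, and testis was 3.81 points higher. Some of these CpGs lay in runs of 5 or more CpGs, which include runs that the rule had read and not chosen. No test is given for the 5931 CpGs together. The 2743 flanking CpGs in runs under 5 CpGs, outside that choice, averaged 89.9% ± 0.20 in testis and 86.1% ± 0.67 in muscle (SD, n = 3 libraries). Testis was 3.77 points higher there, with a two-sided exact permutation p of 0.1, the smallest possible. All CpGs on the linkage groups outside the members differed by 3.48 points, with 56.8% ± 0.39 in testis and 53.4% ± 1.2 in muscle, so that a gap of that size was not particular to the flanks. Of the flanking CpGs, 782 (13.2%) were called higher in testis and 179 (3.02%) higher in muscle in the logistic regression, beside 11.7% and 4.26% of all CpGs. Around the 4144 runs that were over 90% in testis and not in all muscle libraries, CpGs up to 1000 bp away averaged 83.8% ± 0.13 in testis and 78.1% ± 0.91 in muscle.

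**Figure D4:**
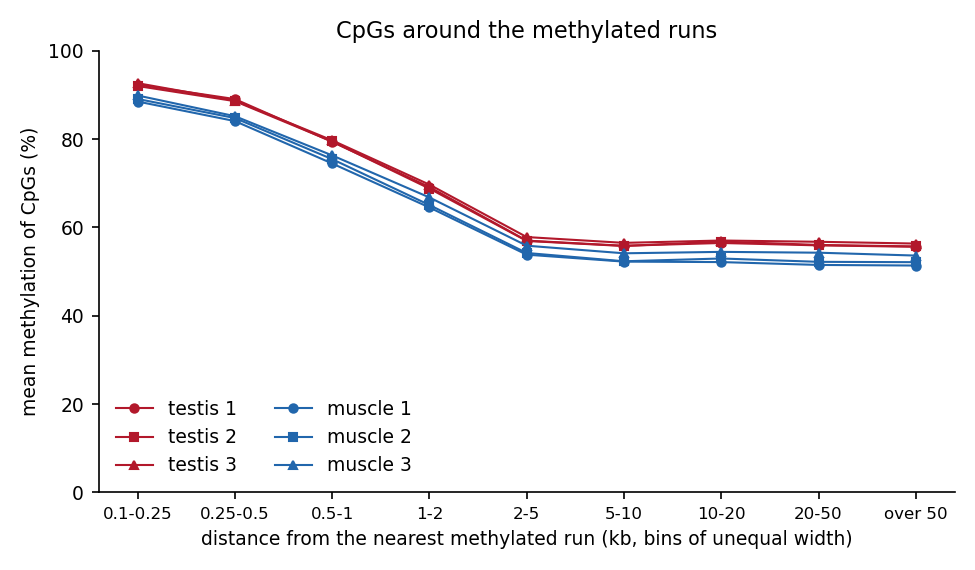
Mean methylation of CpGs outside the runs (vertical axis, %) by distance from the nearest run (horizontal axis, kb, bins of unequal width), with a line for each library. All lines fall over the first 5 kb, to 57.2% in testis and 54.6% in muscle on average in the bin of 2 to 5 kb, and the testis lines stay above the muscle lines.

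Members lay near other members. Of the neighbouring runs of 5 or more CpGs within 250 bp of a member, 40 of 171 (23.4%) were members. Of those within 250 bp of another run of 5 to 14 CpGs, 111 of 2292 (4.84%) were. Neighbours of over 14 CpGs are counted in these totals although they could not be members, and a pair of members counts from both sides. At 500 to 1000 bp the shares were 54 of 189 (28.6%) next to members and 117 of 1354 (8.64%) next to other runs, and at 5000 to 10000 bp they were 15.1% next to members and 12.7% next to other runs. The share next to members was thus the higher one at each of these distances, and the gap was narrower at 5000 to 10000 bp than within 1000 bp. Members up to 1000 bp apart with no other run of 5 or more CpGs between were joined to chains. Chains were short even so: 2359 members stood alone by this rule, 64 chains held 2 members and 1 chain held 3.

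That chain, on LGx, repeated 1 layout of CpGs. Its runs at LGx:7643740-7643834, LGx:7644579-7644673 and LGx:7645670-7645764 each had 6 CpGs in 95 bp with the same gaps of 4, 15, 8, 37 and 29 bp, a pattern found in no other run of 5 to 14 CpGs. Each was preceded by a pair of CpGs that began 125 bp upstream and followed by a single CpG 214 bp after its start, so that a unit of the same layout stood there 3 times, 839 and 1091 bp apart. Whether the sequence of the 3 is also alike was not tested, and reads of near-identical copies may be placed at any of them, so these runs are not counted as independent. The runs averaged 96.2% ± 1.1, 96.9% ± 0.85 and 97.1% ± 1.1 in testis, and 92.4% ± 0.82, 93.2% ± 1.6 and 92.2% ± 0.33 in muscle (SD, n = 3 each). Testis was higher in all 3 fish in each run.

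The 3 runs also shared the profile along the run. The last CpG had 91.5%, 95% and 92.8% in testis 1, 2 and 3 in the first run, against 84.4%, 70.6% and 64.0% in muscle 1, 2 and 3. In the second run it had 95.1%, 97.0% and 97.5% in testis, against 82.0%, 76.9% and 75.9% in muscle. In the third it had 94.9%, 95.8% and 97.4% in testis, against 75.9%, 81.2% and 66.1% in muscle. The tissue difference of the chain thus sat mostly at 1 CpG, the last, while the first CpG was at 93.3% to 98.4% in testis and at 98.1% to 100% in muscle over the 3 runs.

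**Figure D5:**
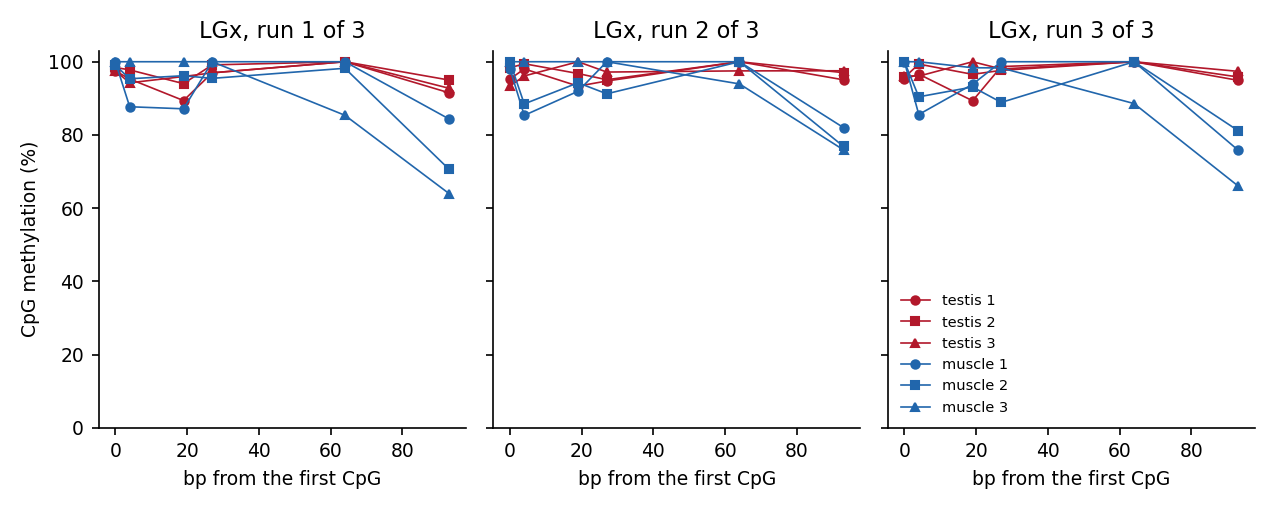
Methylation of the 6 CpGs (vertical axis, %) by distance from the first CpG of the run (horizontal axis, bp) in the 3 runs of the LGx chain, with a line for each library, testis in red and muscle in blue. At the last CpG the testis libraries lie at 91.5% to 97.5% and the muscle libraries at 64.0% to 84.4%.

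This led to a count of runs with the same CpG spacing as another run, read in either direction, which was added after the values had been seen. It held for 98 of 2490 members (3.94%, 95% Wilson interval 3.24 to 4.77), for 888 of the 18113 other runs (4.90%, 4.60 to 5.23) and for 58 of 5791 runs under 10% in all libraries (1.002%, 0.776 to 1.29). The intervals cover counting error only. The most frequent layout, 9 CpGs in 123 bp, stood 58 times on 21 linkage groups and gave 0 members, with a mean of 87.8% ± 0.20 in testis and 72.8% ± 4.3 in muscle (SD, n = 3 libraries). The next, 6 CpGs in 47 bp, stood 50 times and gave 4 members, with 92.3% ± 0.76 in testis and 89.8% ± 1.5 in muscle, and 34 of its runs were over 90% in all 3 testis libraries. Both layouts were highly methylated in testis and gave few members or none. Less frequent layouts were unequal: 5 CpGs in 41 bp gave 4 members of 26 runs, and 6 CpGs in 147 bp gave 0 of 18. The layouts of 6 CpGs in 57 bp and of 5 CpGs in 67 bp gave 5 members of 13 runs and 5 of 14.

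In shape the members were close to the other runs. The median member had 6 CpGs in 97 bp with 15.6 bp from 1 CpG to the next, and the median other run had 6 CpGs in 107 bp with 17.5 bp. Runs under 10% in all libraries had a median of 7 CpGs in 106 bp, 15 bp apart. The share of members was between 9.89% and 13.6% at each size from 5 to 14 CpGs. The longest members were LG5:22840729-22841204, with 14 CpGs in 476 bp at 96.9% ± 0.24 in testis and 96.6% ± 2.2 in muscle, and LG15:25077607-25077989, with 13 CpGs in 383 bp at 98.2% ± 0.97 in testis and 97.4% ± 1.0 in muscle (SD, n = 3 each). The densest was LG20:5602804-5602815, with 5 CpGs in 12 bp at 94.9% ± 2.9 in testis and 97.4% ± 4.4 in muscle, and as few as 15 reads per CpG in muscle 2, followed by LG19:1748972-1748989, with 5 CpGs in 18 bp at 97.0% ± 0.45 in testis and 94.5% ± 1.3 in muscle, and 11 reads in muscle 1. Long and dense runs were thus both found near full methylation, though the dense ones rested on few reads.

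Members were not spread evenly over the genome. They made up 16.1% of the runs on LG24 (118 of 734, 95% Wilson interval 13.6 to 18.9), 15.8% on LGx (117 of 740) and 15.3% on LG1B (105 of 688), and 9.27% on LG10 (77 of 831, 7.48 to 11.4). Within 1 Mb of an end of the covered part of a linkage group they made up 15.6% of the runs (416 of 2669, 14.3 to 17.01), at 1 to 3 Mb 13.9% (557 of 4000, 12.9 to 15.03), and further in 10.9% (1517 of 13934, 10.4 to 11.4). The ends thus held a higher share than the interior. The intervals cover counting error only and take the runs as independent, which runs near each other are not.

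Coverage, which the rule used only through its limits, set members against other runs differently in the tissues. The median run coverage of the members over that of the other runs was 1.001, 1.05 and 1.03 in testis 1, 2 and 3, and 0.864, 0.948 and 0.942 in muscle 1, 2 and 3. The log2 ratio averaged 0.04 ± 0.036 in testis and -0.12 ± 0.074 in muscle (SD, n = 3 libraries each), with testis higher within each of the 3 fish. Its mean over all 6 libraries was -0.04, with a two-sided exact sign-flip permutation p of 0.375. That mean runs over tissues of opposite sign and over libraries that share a fish, so it does not show that coverage was alike.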

How the data were processed

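The authors trimmed the RRBS reads with Trimmomatic, aligned them with BSMAP 2.90 to dicLab v1.0c and deposited a table per library, in which each cytosine of a strand has its coverage (a read count) and the percent of methylated and of unmethylated reads. Methylated reads were coverage times that percent. Sites with at least 10 reads and up to the 99.9th percentile of their library in all 6 libraries (528301 cytosines) were summed over strands to 475516 CpGs. Runs, limits and groups follow the report. For calls, coverage was scaled to the largest median, reads were regressed on tissue by logistic regression, and p-values were adjusted by Benjamini-Hochberg over all CpGs. Single values were compared by exact permutation over libraries. Same-numbered libraries were taken as the same fish, although the labels give only replicate numbers. Deviations from the tissue means correlated at 0.174 to 0.214 within these pairs and at -0.117 to -0.082 across them. Deviations from a shared mean balance out, so the negative values across pairs add no separate evidence. Simulated data with known shifts were used to check the scripts.

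The runs and the rules for named runs were chosen with earlier results of these data known. Named were the extremes by level, tissue difference, coverage, span, spacing, lowest CpG, muscle SD and chain length. LGx and LG1B, the spacing on LGx and single CpGs of named runs were picked after their values were seen. Expression tables of the 10 RNA-seq libraries, including fold changes and p-values of a comparison, were not used here. Alternatives changed the coverage limits, the joining distance, the 90% limit, the mean, the strands, the flank and the test, and left out each fish. Tools were limma 3.58.1 in R 4.3.3, and scipy 1.17.1, pandas 2.3.3, numpy 2.4.6 and matplotlib 3.10.9 in Python 3.11.15.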

Additional observations from a re-analysis of the deposited data

How the results depend on the processing

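The number of runs followed the limit: 4608 runs passed 85% and 701 passed 95%, and with both strands covered 67 of 901 runs passed. Without 1 fish it was 3281 to 3858 (the highest without fish 1), and without 1 library, added after the values were seen, 2532 to 3206. Testis minus muscle over the members was 1.22 points at 85%, -0.495 at 95% and 1.004 with both strands, and -0.104 to 0.423 without 1 fish, the lowest being without fish 2, where the sign changed. The held-out difference stayed between 1.54 and 3.07 points and the flank difference between 2.29 and 4.47. With fish as the replicate block the flanking CpGs in runs under 5 CpGs (3.77 points) had an exact permutation p of 0.25, the smallest 3 fish allow. The unused cytosines (1.13 points) had an exact permutation p of 0.5. Unused cytosines differed by -1.08 points at 95% and -0.849 with both strands (52 cytosines), and by 2.19 at 5 reads, 2.63 at 20 reads, 3.39 at 50 bp, 2.66 at 200 bp and 1.45 at 85%, each of these 5 with exact permutation p = 0.1. They ranged from 0.552 to 1.97 without 1 fish.

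Called member CpGs numbered 347 (1.94%) with the replicate block, 1305 (3.97%) at 85% and 16 (0.317%) at 95%. They numbered 0 with both strands, 0 with quasi-binomial regression and 0 with limma. Without 1 fish, where other runs qualify, they numbered 866 to 1044 (3.12% to 4.48%). Of all CpGs, 15.77% were called with the replicate block, 15.99% at both limits and 9.23% with both strands. Without 1 fish, 16.98% to 18.8% of all CpGs were called. The log2 coverage ratio was 0.11 with both strands. The cause of these changes was not tested. Of 171 alternative values of testis minus muscle for named runs, 160 stayed within 1 SD over the fish. That SD was 6.57 points around 0.986 for the run starting at LG4:830444, so staying within it can show little. Without the upper coverage limit the values were unchanged. The sign changed in several named runs, most often for those starting at LG5:22840729 and LG4:27460139, in 3 alternatives each. It did not change for the runs named for the largest tissue differences. Counting error depends on depth, at a median of 88 to 144 reads per member CpG in testis and 54 to 162 in muscle.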
